A study of Mus musculus with 12 samples.

Results

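Occupancy of RNA polymerase II and acetylation of histone H3 were compared gene by gene in WT microglia. The members are the 4 ChIP-seq libraries of WT mice among the 12 samples of the series, chosen by genotype and antibody: 2 libraries of Rpb2, a core subunit of RNA polymerase II encoded by *Polr2b*, and 2 libraries of H3K27ac. WT mice were *Cx3cr1*+/+ C57BL/6J littermates at 2 mo of age. Each library came from a pool of microglia sorted from 3 mice of 1 sex, 1 pool labelled female and 1 labelled male per antibody, so n = 2 pools per mark. The sources used here do not say whether both antibodies were applied to the same pools. Microglia homozygous for an eGFP cassette that disrupts *Cx3cr1* (*Cx3cr1* eGFP/eGFP, KO; same strain, age and pooling, 2 libraries per mark) served as the comparison with the rest of the series, and the 4 input libraries were not used here. The study asked whether polymerase binding and open chromatin differ with *Cx3cr1* genotype; here both marks were set against each other within WT.

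RNA polymerase II assembles at promoters, often pauses shortly after the start, elongates through the gene and slows again past the polyadenylation site before it is released, so its ChIP signal reports where polymerase sits. H3K27ac, acetylation of a lysine in the tail of histone H3, is laid down at active promoters and enhancers and spreads over several nucleosomes, and in macrophages it covers large domains at genes bound by lineage factors such as PU.1. Microglia are the resident macrophages of the brain and depend on CSF1R and TGF-β receptor signaling and on transcription factors that include SALL1. The marks also differed in width: the median Rpb2 peak that lay in an H3K27ac peak was 258 bp wide, and the median H3K27ac peak that held an Rpb2 peak was 2426 bp wide.

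Rpb2 peaks held 1309593 reads in the female-labelled library and 1554998 in the male one, which were 11.2% and 11.4% of all reads. Pairs of values are given in this order throughout, female label first. H3K27ac peaks held 3360624 and 6378693 reads, which was 15.9% of the female library and 61.4% of the male library, so the H3K27ac pools differed widely in their share of reads in peaks. Y-linked peaks of the Rpb2 table held 136 reads in the WT Rpb2 library with the female label, 214 in its male counterpart, 266 in the KO male and 0 in the KO female. That library, named here by its label, thus goes against it, and the counts of called genes, of genes high in both marks and of the interaction are also given without it and without the female H3K27ac library. Counts of gene lists are given without a library where that moved the larger count by more than 1.5 times. Levels are counts scaled to the total of reads in peaks of the same library (CPM, counts per 1000000), summed over all peaks that carry a gene's name. The floor of 3 reads equals 2.29 and 1.93 CPM in the Rpb2 libraries and 0.893 and 0.470 CPM in the H3K27ac libraries, and such floors cover counting error only. The microglia markers *Cx3cr1*, *P2ry12*, *Tmem119*, *Csf1r*, *Sall1*, *Siglech* and *Gpr34* all had Rpb2 peaks, with levels between 371 and 2762 CPM.

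The promoters of 6 genes are printed because they show the DNA next to the starts of genes that the comparison separates. They are the 120 bases before the RefSeq start site (GRCm38.p6, the mm10 assembly), 5′ to 3′ on the strand of the gene. *Inpp5d* (chr1:87620192-87620311, + strand) and *Sall1* (chr8:89043513-89043632, − strand) were high in both marks. *C1qb* (chr4:136886201-136886320, − strand) and *Btg2* (chr1:134079156-134079275, − strand) were higher in Rpb2. For *C1qb* this holds for peaks summed by name only, and it turned when peaks were given by gene body, as described below. *Camsap1* (chr2:25983283-25983402, − strand) and *Nos1ap* (chr1:170557111-170557230, − strand) were higher in H3K27ac. The printed start of *Nos1ap* lies 78720 bp from the center of its only Rpb2 peak. For the other genes the distance to the Rpb2 peak with most reads is 54 to 281 bp. Which start is in use was not tested. Capitals mark matches on either strand. The motifs were the GC box, GGGCGG, and the CCAAT box, which is searched by its own letters. The ETS core common in housekeeping promoters was searched as CCGGAAG. The site type bound by PU.1 was searched as GAGGAAGT. The AP-1 site was searched as TGANTCA and the TATA core as TATAAA. Overlapping matches share capitals.
Inpp5d: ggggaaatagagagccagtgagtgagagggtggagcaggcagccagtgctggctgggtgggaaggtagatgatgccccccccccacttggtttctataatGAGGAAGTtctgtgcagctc
Sall1: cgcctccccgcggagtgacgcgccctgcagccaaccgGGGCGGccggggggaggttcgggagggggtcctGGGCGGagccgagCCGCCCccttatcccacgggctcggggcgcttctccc
C1qb: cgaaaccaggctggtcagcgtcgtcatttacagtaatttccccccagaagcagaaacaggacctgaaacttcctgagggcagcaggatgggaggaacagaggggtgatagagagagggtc
Btg2: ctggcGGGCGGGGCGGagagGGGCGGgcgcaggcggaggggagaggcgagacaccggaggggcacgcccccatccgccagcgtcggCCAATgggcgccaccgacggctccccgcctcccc
Camsap1: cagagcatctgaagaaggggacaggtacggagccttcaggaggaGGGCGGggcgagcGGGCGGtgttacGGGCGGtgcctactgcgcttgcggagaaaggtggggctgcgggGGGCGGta
Nos1ap: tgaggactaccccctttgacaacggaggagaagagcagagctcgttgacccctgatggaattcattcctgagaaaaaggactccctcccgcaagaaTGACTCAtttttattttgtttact

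In these windows *Sall1*, *Btg2* and *Camsap1* held GC boxes, *Btg2* also held a CCAAT box, *Inpp5d* held the site of the PU.1 type and *Nos1ap* an AP-1 site, while *C1qb* held none of the letters searched. Of 32817 RefSeq promoter windows of the same length, 26.5% held a GC box, 21.3% a CCAAT box, 6.35% a TATA core, 4.99% the ETS core, 3.41% an AP-1 site and 1.33% the PU.1 type. GC-box promoters thus occurred among genes high in both marks, higher in Rpb2 and higher in H3K27ac alike. Promoters were matched for 7443 of the 9611 genes tested (77.4%), too few for a comparison of promoter sequence between groups of genes, and none was made.

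Most Rpb2 peaks lay in acetylated chromatin, while most H3K27ac peaks lacked an Rpb2 peak. Of 26706 Rpb2 peaks, 20464 (76.6%) shared at least 1 bp with an H3K27ac peak, and they held 91.2% and 91.4% of the Rpb2 reads in peaks. Of 55862 H3K27ac peaks, 13086 (23.4%) held an Rpb2 peak, with 67.5% and 76.3% of the H3K27ac reads. The relation followed position in the gene. Rpb2 peaks annotated to promoters lay in H3K27ac in 98.6% of cases and those in 5′ UTRs in 98.7%, against 70.4% in introns, 68.9% between genes, 41.6% in 3′ UTRs and 40.5% at transcription ends.

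**Figure D1:**
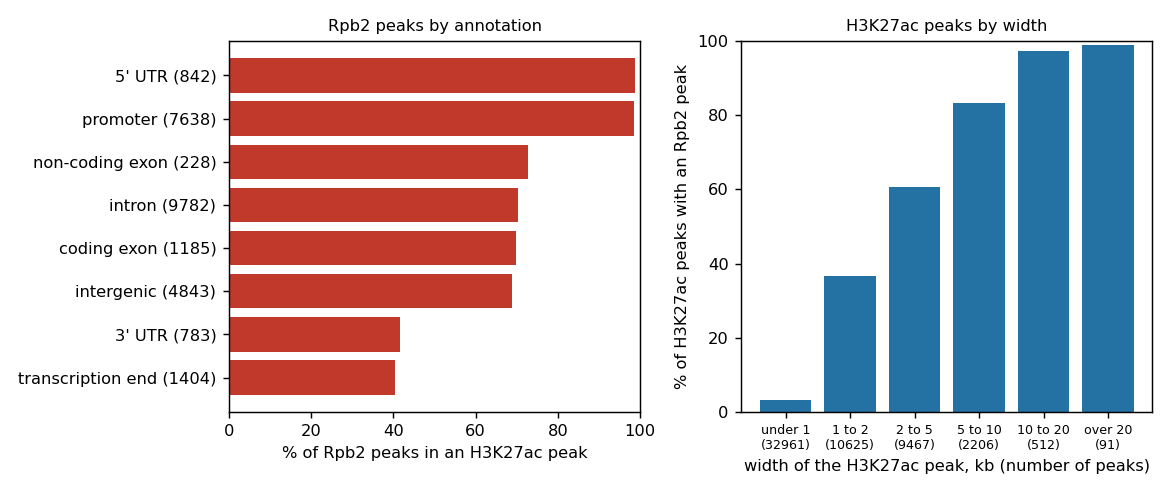
Left, share of Rpb2 peaks that overlap an H3K27ac peak by at least 1 bp, by the annotation class of the Rpb2 peak, with the number of peaks in brackets. Right, share of H3K27ac peaks that hold an Rpb2 peak, by the width of the H3K27ac peak in kb. Promoter peaks of Rpb2 reach 98.6% and transcription ends 40.5%, and the share of H3K27ac peaks rises from 3.12% under 1 kb to 98.9% over 20 kb.

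The share of H3K27ac peaks that held Rpb2 rose with their width. Since 1 shared bp was enough, a wider peak has more room for an Rpb2 peak, and the part of length alone was not tested. Peaks under 1 kb held 15.1% and 4.77% of the H3K27ac reads in peaks. Of 32961 peaks under 1 kb, 3.12% held an Rpb2 peak, against 36.6% at 1 to 2 kb, 60.7% at 2 to 5 kb, 83.5% at 5 to 10 kb and 97.5% of the 512 peaks of 10 to 20 kb. Of the 91 H3K27ac domains over 20 kb, 90 held Rpb2 peaks, with a median of 11 and up to 37 in 1 domain. The domain over *Inpp5d*, which encodes the lipid phosphatase SHIP1, held 32 Rpb2 peaks (chromosome 1, 87618963 to 87664135), and the domain of *Cx3cr1* held 26 (chromosome 9, 120026314 to 120074030). Wide domains without any Rpb2 peak were few. The one with most reads on a named chromosome lay near *Tmsb4x* on the X chromosome (167162179 to 167183469), 36394 bp from the nearest start, with 763 and 2145 H3K27ac reads, and the next lay upstream of *Mef2a* (chromosome 7, 67439313 to 67452791), with 783 and 1862 reads.

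The list from which a peak came also mattered. The authors merged the WT and KO peak lists, and 14148 Rpb2 peaks (53.0%) came from the KO list alone, so these are places where the WT libraries were counted but no WT peak was called. With peaks of the WT list only, 80.9% of Rpb2 peaks lay in H3K27ac and 19.2% of H3K27ac peaks held Rpb2. Among the 18587 H3K27ac peaks of the WT list alone, 1.02% held an Rpb2 peak, and their median count was 20 reads in the female library and 0 in the male.

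Rpb2 peaks outside H3K27ac lay along and after genes rather than at their starts. Of the 6242 such peaks, 66.0% lay inside a gene more than 1 kb from a start and 28.1% lay within 10 kb past a gene end, against 40.0% and 6.01% of the Rpb2 peaks in H3K27ac. They were weaker, with median counts of 14 and 17 reads against 40 and 47. Their sequence differed as well. In the central 200 bases the median GC content was 48.0% outside and 56.5% inside H3K27ac, and the GC box was found in 3.32% of windows outside, 28.3% inside and 22.4% over all Rpb2 peaks. The polyadenylation signal AATAAA, which marks where a transcript is cut, was found in 17.0% outside, 7.42% inside and 9.67% over all, and the PU.1-type site in 1.25%, 4.87% and 4.02%. Among peaks inside genes away from the start, the PU.1-type site stood at 1.09% outside and 5.79% inside H3K27ac and the GC box at 3.30% and 13.1%. These shares are descriptions over peaks, which are not replicates.

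The DNA of 1 of these peaks is printed, from the reference strand of GRCm38, because it is among the strongest Rpb2 peaks with no H3K27ac. It lies past the end of *C1qb* (chr4:136878190-136878414), with 252 and 246 reads. The site is a gap between 2 H3K27ac peaks named *C1qb*, of which the first ends at 136877707 and the next starts at 136878878. Capitals mark a TATA core, the only match on either strand to the motifs named above or to AATAAA.
C1qb peak: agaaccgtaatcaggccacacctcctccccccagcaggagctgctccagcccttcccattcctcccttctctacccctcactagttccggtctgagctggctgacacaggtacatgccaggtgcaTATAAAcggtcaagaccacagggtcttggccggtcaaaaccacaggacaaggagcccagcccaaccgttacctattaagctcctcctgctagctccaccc

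Several genes annotated as small nuclear RNAs or as U3 RNA were among the strongest Rpb2 sites. These genes were taken by annotation, without a check of which polymerase transcribes each of them. They lay within 100 bases of 36 Rpb2 peaks, and 31 of these peaks lay in H3K27ac. Those 36 peaks had median counts of 182 and 169 reads, against 31 and 37 over all Rpb2 peaks, and took 0.888% and 0.777% of the Rpb2 reads in peaks. Of the 50 strongest Rpb2 peaks, 11 lay at such genes, and all 50 lay in H3K27ac. The strongest Rpb2 peak of all, at *Gm25313* (938 and 965 Rpb2 reads; chromosome 9, 65196384 to 65196657), sat in an H3K27ac peak with 176 and 900 reads. At *Rnu1a1*, a U1 RNA gene, 823 and 799 Rpb2 reads stood against 82 and 319 H3K27ac reads, and at *Rnu11*, of the minor spliceosome, 809 and 831 stood against 76 and 425. These genes share reads with copies elsewhere, and the deposited names give most of these peaks to a neighboring gene, such as *Parp16*.

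Summed by name, 17538 genes had a peak of either mark: 9613 of both, 593 of Rpb2 only and 7332 of H3K27ac only. The 9613 shared genes held 96.6% and 96.7% of the Rpb2 reads in peaks and 86.6% and 93.3% of the H3K27ac reads. Genes with H3K27ac only were weakly marked, with a median of 7.14 CPM against 43.6 CPM of H3K27ac in the genes with both. Across the 9613 genes, Spearman correlations between an Rpb2 and an H3K27ac library ran from 0.589 to 0.605, while libraries of the same mark correlated at 0.906 for Rpb2 and 0.931 for H3K27ac. These are across genes, which are not independent. Reads were summed over all peaks of a name, so the number of peaks enters both marks, and the part of gene length was not tested. Per kb of peak, the mean correlation between the marks was 0.326.

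**Figure D2:**
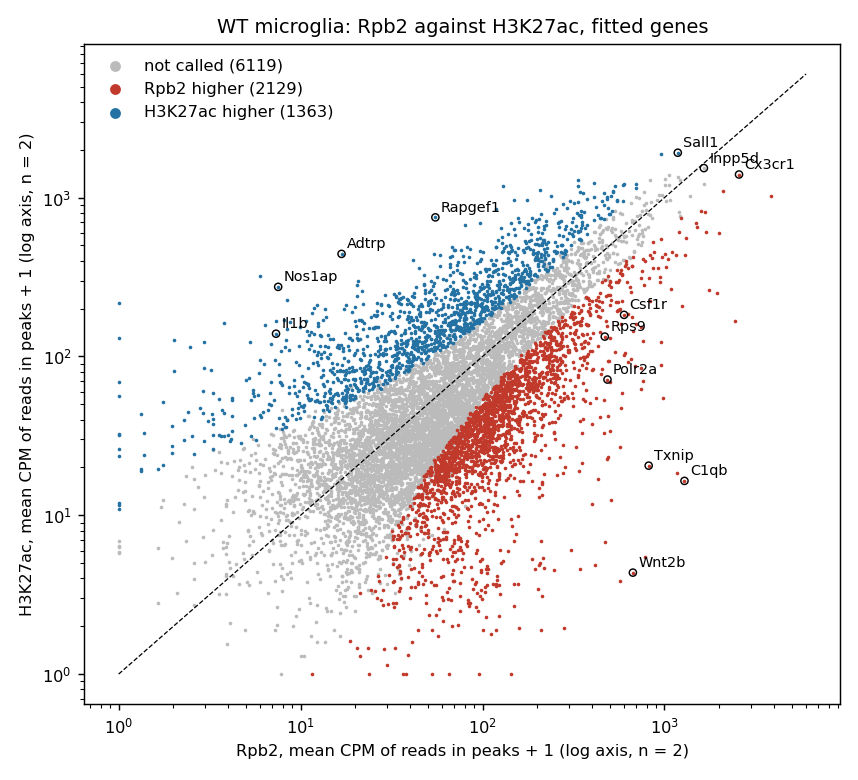
Mean level of Rpb2 (x axis) against mean level of H3K27ac (y axis) in WT microglia, as CPM of reads in peaks plus 1 on log axes, for the 9611 genes tested (n = 2 libraries per mark; the dashed line marks equal CPM). Red points are the 2129 genes with higher Rpb2, blue points the 1363 with higher H3K27ac and gray points the 6119 not called.

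The balance of the marks was tested on the 9611 shared genes with a mean of at least 4 reads in 1 of the marks. The log2 ratio of Rpb2 over H3K27ac was fitted with edgeR's quasi-likelihood test, and p-values were adjusted over all 9611 genes. Of these, 3492 (36.3%) differed, 2129 (22.2%) with higher Rpb2 and 1363 (14.2%) with higher H3K27ac, and 6119 did not pass. In counts simulated with the same spread for every gene, this test recovered 46 of 100 genes changed 4-fold and 0 of 100 changed 2-fold. A gene that did not pass is thus not shown to have balanced marks. The simulation changed 100 genes at each size, against 3492 called in the data, and gave all genes 1 spread. Its recovery is therefore not that of a given gene here, and *B2m* passed at a log2 ratio of 0.97. Calls and their directions are set against a log2 ratio of 0, while the median over all genes was 0.34. Medians of gene lists are to be read beside that median. In what follows a value that a gene lies at is its log2 ratio of Rpb2 over H3K27ac. TMM scaling moved the median by −0.39 and turned the split to 1346 and 1956, and DESeq2 gave 1340 and 1785. Restricted to peaks within 1000 bp of a TSS, 1372 of 6677 genes differed, 476 with higher Rpb2 and 896 with higher H3K27ac. Without the female-labelled Rpb2 library, 2549 genes differed (1488 and 1061), and without the female H3K27ac library 3594 (2337 and 1257).

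Genes with higher H3K27ac had more H3K27ac peaks, which covered more DNA, than the genes tested as a whole. They held a median of 7 H3K27ac peaks that covered 14.1 kb, against 2 peaks that covered 3.86 kb over all genes tested and 2 peaks that covered 2.74 kb in the Rpb2-higher genes. The calls used the reads summed over these same peaks, so peak number and width are not independent of them. The median number of Rpb2 peaks was 2 in both groups. By distance, 58.4% and 59.5% of the Rpb2 reads in peaks lay within 1000 bp of a TSS, against 30.7% and 28.1% of the H3K27ac reads, while 43.4% and 43.7% of the H3K27ac reads lay more than 10 kb away.

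By reads summed over all peaks, the sets of genes highest in each mark overlapped in more than 50% of their members. A gene was called high in a mark when it stood in the top 10% of all 17538 genes in both libraries, which needed about 149.7 and 149.2 CPM of Rpb2 and 136.3 and 148.6 CPM of H3K27ac. This gave 1496 genes for Rpb2 and 1561 for H3K27ac. They shared 892, which is 59.6% of the Rpb2 set and 57.1% of the H3K27ac set. Another 604 genes were high in Rpb2 only and 669 in H3K27ac only. The shared set had a median of 7 Rpb2 peaks and 22.5 kb of H3K27ac per gene, the Rpb2-only set 5.69 kb and the H3K27ac-only set 18.4 kb. Ranked per kb of peak in place of summed reads, the shared set was 228 genes, 17.4% of the Rpb2 set and 28.8% of the H3K27ac set. The shares were 36.2% and 36.4% with peaks within 1000 bp of a TSS, and 52.4% and 49.3% with peaks of the WT list. By summed reads over all peaks, the shared set was 980 without the female-labelled Rpb2 library and 939 without the female H3K27ac library.

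The 10 genes with the best worst rank in both marks were *Inpp5d*, *E230029C05Rik*, *Slco2b1*, *Marcks*, *Srgap2*, *Ly86*, *Tgfbr1*, *Sall1*, *Lgmn* and *Cx3cr1*. *Cx3cr1*, the fractalkine receptor, had 2762 and 2372 CPM of Rpb2 and 1128 and 1664 CPM of H3K27ac. Both Rpb2 values lay above both H3K27ac values, and the log2 ratio was 0.88 ± 0.25 (SE, adjusted p = 0.018). *Tgfbr1*, the kinase subunit of the TGF-β receptor, had 2166 and 2033 CPM of Rpb2 and 915 and 1269.9 CPM of H3K27ac, with a log2 ratio of 0.94 ± 0.24 (SE, adjusted p = 0.00996). *Sall1*, the transcription factor that marks microglia among macrophages, lay the other way, with 1079.7 and 1285 CPM of Rpb2 and 1571 and 2259.9 CPM of H3K27ac, with a log2 ratio of −0.70 ± 0.25 (SE, adjusted p = 0.0463). *Inpp5d* had 1699.8 and 1591 CPM of Rpb2 and 1272 and 1793 CPM of H3K27ac; these ranges overlapped and the ratio was 0.10 ± 0.24 (SE, adjusted p = 0.772). *Lgmn*, a lysosomal endopeptidase, and *Slco2b1*, an organic anion transporter, each had a log2 ratio of 0.43 that did not pass the test, and *Marcks*, *Srgap2*, *Ly86* and *E230029C05Rik* lay between −0.40 and −0.09 without passing it. The calls of 3 of these genes needed both Rpb2 libraries: without the female-labelled or the male one the adjusted p was 0.413 and 0.285 for *Cx3cr1*, 0.286 and 0.237 for *Tgfbr1*, and 0.570 and 0.387 for *Sall1*. With TMM factors *Cx3cr1* lay at 0.48 (adjusted p = 0.277) and *Tgfbr1* at 0.55 (adjusted p = 0.194), and with peaks of both lists *Cx3cr1* turned to −0.31 (adjusted p = 0.195). *Sall1* did not pass with the sex label as a block (adjusted p = 0.0770) or with the newer quasi-likelihood method (0.0785), and turned to 0.56 by gene body (adjusted p = 0.0530).

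**Figure D3:**
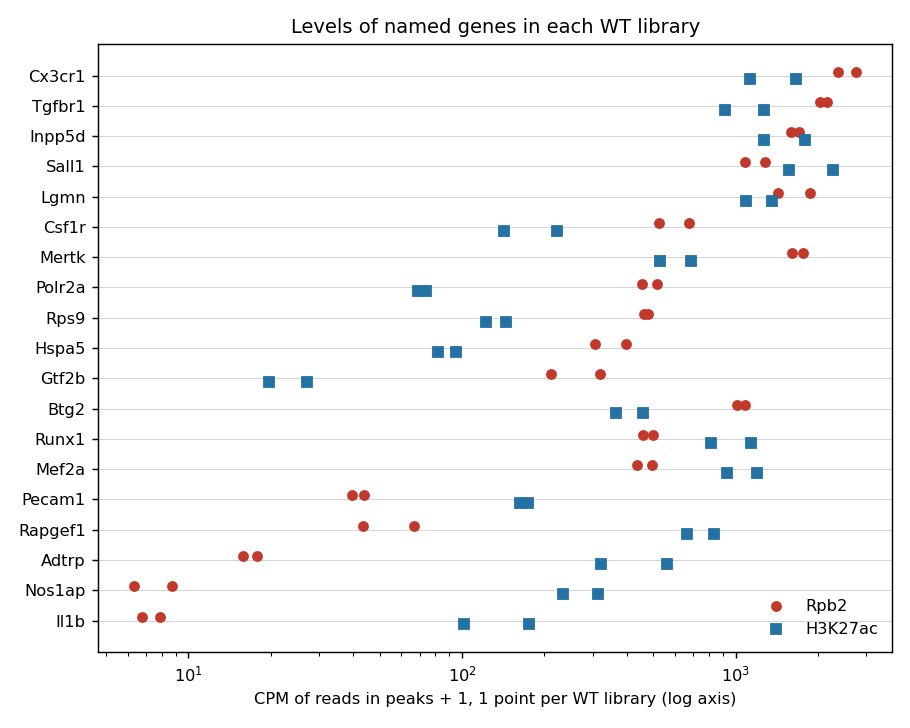
Levels of 19 named genes in each WT library as CPM of reads in peaks plus 1 on a log axis, with 2 red circles for Rpb2 and 2 blue squares for H3K27ac per gene. Circles and squares lie near each other for *Inpp5d* and *Lgmn*, circles lie to the right for *Polr2a* and *Gtf2b*, and squares to the right for *Rapgef1*, *Nos1ap* and *Il1b*.

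The 10 genes with the lowest p on the Rpb2 side were *Wnt2b*, *C1qb*, *Phospho1*, *Txnip*, *Kcnrg*, *Orm2*, *Ccdc83*, *S1pr4*, *Atg16l1* and *Unc50*, with log2 ratios from 4.18 to 7.64. *C1qb*, a chain of the complement initiator C1q that microglia make, had 1377 and 1197 CPM of Rpb2 and 14.0 and 16.9 CPM of H3K27ac, with a log2 ratio of 6.36 ± 0.29 (SE, adjusted p = 3.09e-07). *Txnip*, an inhibitor of thioredoxin, had 905 and 731 CPM of Rpb2 and 19.9 and 19.1 CPM of H3K27ac, with a log2 ratio of 5.39 ± 0.27 (SE, adjusted p = 7.73e-07). *Wnt2b*, a Wnt ligand gene, had 672 and 667 CPM of Rpb2 and 3.57 and 3.14 CPM of H3K27ac. Rpb2 lay far above H3K27ac in every library of these genes. For these genes the deposited names, which give a peak to the gene with the nearest start, place the marks on different genes.

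At *C1qb*, 56.6% of the Rpb2 reads lay in an H3K27ac peak named *C1qc*, an 18291-bp domain on chromosome 4 (136882197 to 136900487; 2366 and 5450 reads) that also holds the 3 Rpb2 peaks of *C1qa*. At *Wnt2b* and *Txnip*, 100% of the Rpb2 reads lay in H3K27ac domains named *Cttnbp2nl* (35330 bp) and *Gm15441* (17801 bp), and at *Phospho1*, 85.6% lay in one named *Gngt2* (19107 bp). The marker *Tmem119* showed the same: 769 and 796 CPM of Rpb2 and 8.33 and 0.627 CPM of H3K27ac under its own name, a log2 ratio of 7.72 ± 0.63 (SE, adjusted p = 1.34e-05), with all of its Rpb2 reads in H3K27ac peaks named *Iscu* and *Selplg*, the first a domain of 31141 bp with 2401 and 6244 reads. Of the 2129 Rpb2-higher genes, 194 (9.11%) had more than 50% of their Rpb2 reads in an H3K27ac peak of another name, against 3.33% of all 9611 genes and 0.587% of the H3K27ac-higher genes.

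Other names of that group carried Rpb2 peaks in the body of a neighbor. *Atg16l1*, an autophagy gene, had 972 and 977 CPM of Rpb2 and 52.7 and 54.4 CPM of H3K27ac, with a log2 ratio of 4.18 ± 0.24 (SE, adjusted p = 1.58e-06). Of its 39 Rpb2 peaks, 34 lay outside H3K27ac between 87688020 and 87729791 on chromosome 1, and 25 of those 34 lay in the body of *Inpp5d*, which ends at 87720507. *Orm2*, an acute-phase protein gene, held 16 uncovered peaks, of which 8 lay in *Akna*. *Ccdc83* held 9, of which 8 lay in *Picalm*, a clathrin adaptor gene. All 10 uncovered peaks of *Kcnrg* lay in *Dleu2*, and of the 5 uncovered peaks of *S1pr4*, 4 lay in *Gna15*. The levels printed for these names therefore include peaks inside other genes.

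With each peak given instead to every gene whose body it overlaps, from 1000 bp before the start to the end, the ratio of several of these genes closed or turned. *C1qb* stood at −0.57 ± 0.23 (SE), *Tmem119* at −1.16 ± 0.24 (SE), *Atg16l1* at −1.37 ± 0.72 (SE), *Txnip* at 0.91 ± 0.23 (SE) and *Phospho1* at 0.99 ± 0.23 (SE). *Kcnrg*, at 4.96 ± 0.56 (SE), and *S1pr4*, at 5.16 ± 0.40 (SE), stayed on the Rpb2 side. In that count a wide domain is added whole to each gene that it touches. Over all genes, 5191 of 12141 differed, 3377 with higher Rpb2 and 1814 with higher H3K27ac. Of 1951 Rpb2-higher genes present in both fits, 1604 were called in the same direction and 49 in the opposite one, and of 1038 H3K27ac-higher genes 743 and 36.

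**Figure D4:**
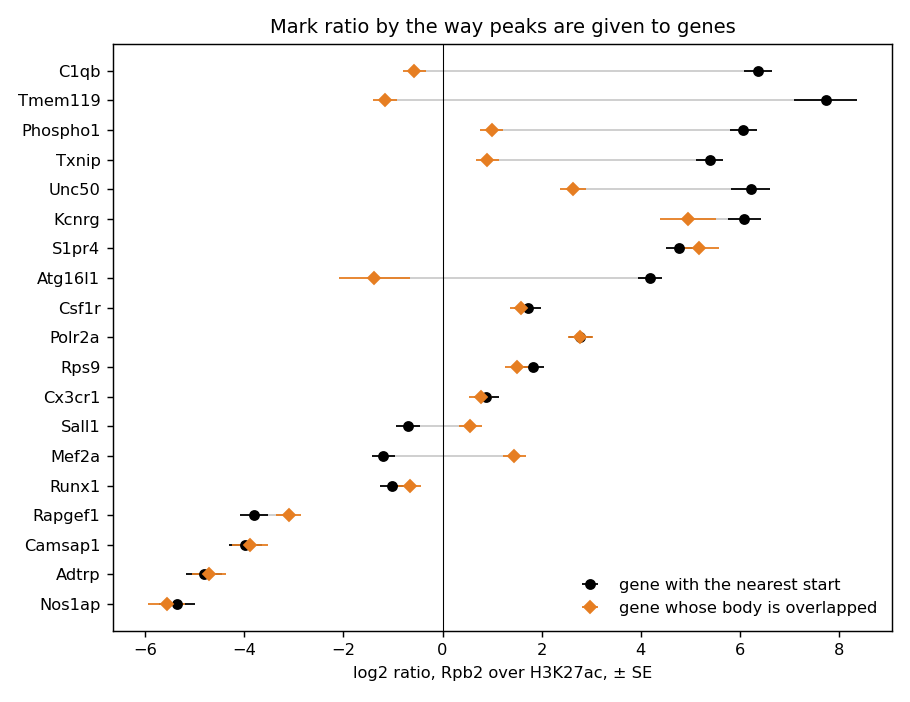
Log2 ratio of Rpb2 over H3K27ac ± SE for 19 genes in WT microglia (n = 2 libraries per mark), with peaks given to the gene with the nearest start (black circles) or to every gene whose body they overlap (orange diamonds), joined by a gray line. *Tmem119*, *C1qb* and *Atg16l1* move from 7.72, 6.36 and 4.18 to below 0, while *Polr2a* and *Camsap1* lie in nearly the same place by both ways.

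On the H3K27ac side, the 10 genes with the lowest p were *Nos1ap*, *Adtrp*, *Ccr1l1*, *Gm29811*, *Rapgef1*, *B930025P03Rik*, *Csmd3*, *Esyt3*, *Pnpla7* and *Camsap1*. *Rapgef1*, an exchange factor for small GTPases, had 65.7 and 42.4 CPM of Rpb2 and 664 and 835 CPM of H3K27ac, with a log2 ratio of −3.80 ± 0.29 (SE, adjusted p = 8.06e-06) and 10 H3K27ac peaks against 6 of Rpb2. *Adtrp*, a hydrolase of fatty acid esters, had 16.8 and 14.8 CPM of Rpb2 and 321 and 561 CPM of H3K27ac, with a log2 ratio of −4.81 ± 0.36 (SE, adjusted p = 7.16e-06). *Nos1ap*, an adaptor of neuronal nitric oxide synthase, had 5.35 and 7.72 CPM of Rpb2 and 233 and 313 CPM of H3K27ac over 22 H3K27ac peaks and 1 Rpb2 peak, with a ratio of −5.36 ± 0.36 (SE, adjusted p = 4.58e-06). *Camsap1*, which binds microtubule minus ends, had 13.7 and 11.6 CPM of Rpb2 and 191 and 207 CPM of H3K27ac, with a log2 ratio of −3.97 ± 0.33 (SE, adjusted p = 1.34e-05). In each of these genes both Rpb2 libraries lay below both H3K27ac libraries. Given by gene body, the ratios of *Nos1ap*, *Adtrp*, *Rapgef1* and *Camsap1* were −5.57, −4.71, −3.10 and −3.88.

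For 2 of the 10 genes the WT Rpb2 libraries held 0 reads. At *Ccr1l1*, a chemokine receptor-like gene, H3K27ac stood at 167 and 267 CPM, the lower of which is at least 72.7-fold higher than the larger floor of 3 reads per Rpb2 library. At *Pnpla7*, a lysophospholipase gene, it stood at 128 and 132 CPM, by the same bound at least 56.0-fold higher. *Esyt3* had 1 and 2 Rpb2 reads beside 116 and 134 CPM of H3K27ac. By gene body, *Pnpla7* turned to 0.62 ± 0.25 (SE).

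Genes of the homeostatic microglia signature were rich in both marks. Of its 37 symbols, all but *Gpr56*, an older name of *Adgrg1*, had peaks of both, and 32 were high in Rpb2 and 31 in H3K27ac, 29 of them in both. Of the 36 tested, 14 had higher Rpb2 and 5 higher H3K27ac, beside 22.2% and 14.2% of all genes. Their median log2 ratio was 0.41 beside 0.34 over all genes. Over all genes TMM scaling gave 1346 and 1956 of 9611, peaks found on both the WT and KO lists 2714 and 776 of 5624. Peaks near a TSS gave 476 and 896 of 6677. In this list the same settings gave 7 and 7, 9 and 9, and, with 5 members tested near a TSS, 1 and 4. Without the male H3K27ac library 21 and 3 passed, and without either Rpb2 library 6 and 2. *Csf1r*, the receptor that microglia need to survive, had 675 and 522 CPM of Rpb2 and 141 and 222 CPM of H3K27ac, with a log2 ratio of 1.72 ± 0.27 (SE, adjusted p = 0.000579); 89.4% of its Rpb2 reads lay in an H3K27ac peak named *Mir6983*. *Mertk*, a receptor for apoptotic cells, had 1759 and 1607 CPM of Rpb2 and 528 and 687 CPM of H3K27ac, with a log2 ratio of 1.47 ± 0.23 (SE, adjusted p = 0.000628). On the other side, *Slc2a5*, a fructose transporter, had 30.5 and 46.3 CPM of Rpb2 and 129.7 and 195 CPM of H3K27ac, with a log2 ratio of −2.08 ± 0.34 (SE, adjusted p = 0.000779), and *Adgrg1*, an adhesion receptor, had 158 and 142 CPM of Rpb2 and 419.6 and 487 CPM of H3K27ac, with a log2 ratio of −1.60 ± 0.23 (SE, adjusted p = 0.000341). *P2ry12*, the purinergic receptor of surveying microglia, had 371 and 439 CPM of Rpb2 and 259 and 436 CPM of H3K27ac, ranges that overlapped, and 0.22 ± 0.27 (SE, adjusted p = 0.561).

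With peaks summed by name, myeloid transcription factor genes and cytokine genes had higher H3K27ac in larger shares than the 14.2% of all genes. By gene body 8 of 30 and 3 of 13 members had higher H3K27ac, and neither list had more H3K27ac-higher than Rpb2-higher members. Over all genes, H3K27ac and Rpb2 were higher in 1814 and 3377 of 12141 by gene body. Those splits were 1956 and 1346 of 9611 by TMM, and 1785 and 1340 by DESeq2. Of 29 transcription factor genes tested, 11 had higher H3K27ac and 6 higher Rpb2 (median log2 ratio −0.26; TMM 14 and 3, DESeq2 14 and 2; 6 and 4 without the female-labelled Rpb2 library, 5 and 4 without the male one). By gene body the count was 8 and 12 of 30, with a median of 0.37 beside 0.44 over all genes. *Etv6* had 123 and 172 CPM of Rpb2 and 842 and 1076 CPM of H3K27ac over 39 H3K27ac and 4 Rpb2 peaks, and a ratio of −2.70 ± 0.26 (SE, adjusted p = 3.69e-05). *Rxra*, a nuclear receptor, had 83.2 and 78.5 CPM of Rpb2 and 502 and 472 CPM of H3K27ac, with a log2 ratio of −2.59 ± 0.24 (SE, adjusted p = 2.48e-05). *Runx1* and *Mef2a*, both lineage factors, lay at −1.02 ± 0.24 (SE, adjusted p = 0.00657) and −1.19 ± 0.23 (SE, adjusted p = 0.00225); neither passed without the female-labelled Rpb2 library (adjusted p = 0.190 and 0.139) or without the male one (0.135 and 0.0821), and by gene body *Mef2a* turned to 1.45. *Spi1*, which encodes PU.1, and *Irf8* did not pass the test (log2 ratios −0.62 and 0.33).

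Near a TSS, H3K27ac and Rpb2 were higher in 896 and 476 of 6677 genes. Of 16 cytokine and chemokine genes tested, 7 had higher H3K27ac and 1 higher Rpb2, with a median of −0.73. The count was 9 and 0 by TMM, 4 and 0 of 9 near a TSS and 3 and 3 of 13 by gene body. Without the male H3K27ac library the count was 2 and 0. *Il1b*, which encodes interleukin-1β, had 6.87 and 5.79 CPM of Rpb2 and 101 and 175 CPM of H3K27ac, with 9 reads in each Rpb2 library, and a ratio of −4.45 ± 0.46 (SE, adjusted p = 4.85e-05). *Ccl3* had 42.8 and 30.2 CPM of Rpb2 and 118 and 175 CPM of H3K27ac, with a log2 ratio of −2.01 ± 0.34 (SE, adjusted p = 0.001), and *Ccl2* had 5.35 and 28.3 CPM of Rpb2 and 61.0 and 67.9 CPM of H3K27ac, with a log2 ratio of −1.92 ± 0.63 (SE, adjusted p = 0.0342). *Ccl6*, *Ccl12*, *Ccl9* and *Ccl5* were the other members with higher H3K27ac, while *Tgfb1*, *Il1a* and *Il16*, among the members with most reads, did not pass (0.30, −0.56 and −0.34). *Tnf* was the member with higher Rpb2, with 102 and 102 CPM of Rpb2, 49.99 and 60.2 CPM of H3K27ac and 0.89 ± 0.31 (SE, adjusted p = 0.0442). By TMM its ratio was 0.50 (adjusted p = 0.254). It also did not pass with DESeq2 or with the sex label as a block, and its call was lost when any single WT library was left out.

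Cytosolic ribosomal protein, replication-dependent histone and chaperone genes had higher Rpb2 in larger shares than the 22.2% of all genes. Of 61 cytosolic ribosomal protein genes tested, 45 had higher Rpb2 and 1, *Rpl34*, higher H3K27ac, with a median log2 ratio of 1.57, which is 1.23 above that of all genes. TMM gave 34 and 1, DESeq2 33 and 1, and peaks near a TSS 18 and 1 of 58 with a median of 0.69. *Rps9* had 476 and 461 CPM of Rpb2 and 121 and 143 CPM of H3K27ac, with a log2 ratio of 1.82 ± 0.23 (SE, adjusted p = 0.000145), and *Rps20* had 454 and 295 CPM of Rpb2 and 116 and 84.0 CPM of H3K27ac, with a log2 ratio of 1.91 ± 0.28 (SE, adjusted p = 0.000384) that did not pass near a TSS (0.62, adjusted p = 0.294). *Rplp0* and *Rplp1*, of the ribosomal stalk, did not pass (0.16 and 0.51). *Rpl34* had 5 and 4 Rpb2 reads under its name, a log2 ratio of −4.02 ± 0.70 (SE, adjusted p = 0.00113), and by gene body it turned to 1.95 ± 0.36 (SE). Ribosomal protein genes have many processed pseudogenes and the authors kept uniquely mapped reads only, so these counts are uncertain.

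Replication-dependent histone genes, whose transcripts lack poly(A) tails, gave 20 with higher Rpb2 and 0 with higher H3K27ac of 34 tested (median 1.87; TMM 16 and 1, near a TSS 9 and 2 of 27). *Hist1h4c* had 452 and 329 CPM of Rpb2 and 56.2 and 43.7 CPM of H3K27ac, with a log2 ratio of 2.97 ± 0.27 (SE, adjusted p = 2.53e-05), and *Hist1h1c*, a linker histone gene, had 631 and 628 CPM of Rpb2 and 159 and 209 CPM of H3K27ac, with a log2 ratio of 1.77 ± 0.23 (SE, adjusted p = 0.000206), while *Hist2h4* did not pass (0.59). *Hist1h1a* and *Hist1h3h* had 0 H3K27ac reads under their names, with all of their Rpb2 reads in peaks named for another histone gene. The median was the same with these 2 genes set at the bound that 3 reads per library allow. The histone genes are clustered near-identical copies, so their counts are uncertain.

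Heat shock and chaperone genes gave 13 with higher Rpb2 and 0 with higher H3K27ac of 22, with a median of 1.36. TMM gave 8 and 0, and peaks near a TSS 5 and 2. All lists of this paragraph stand beside 22.2% and 14.2% of all genes. Over all genes TMM gave 1346 and 1956 of 9611, DESeq2 1340 and 1785, and peaks near a TSS 476 and 896 of 6677. *Hsp90ab1*, a cytosolic chaperone, had 367 and 325 CPM of Rpb2 and 129 and 108 CPM of H3K27ac, with a log2 ratio of 1.54 ± 0.23 (SE, adjusted p = 0.000445), and *Hspa8*, its partner of the HSP70 family, had 412 and 383 CPM of Rpb2 and 202 and 246 CPM of H3K27ac, with a log2 ratio of 0.82 ± 0.22 (SE, adjusted p = 0.014). *Dnajb4*, at 3.15 ± 0.25 (SE, adjusted p = 1.02e-05), had 60.2% of its Rpb2 reads in an H3K27ac peak named *Fubp1*. Without the female-labelled Rpb2 library 8 and 0 passed, and *Hspa8* was lost without it (adjusted p = 0.105) or without the male one (0.0677). *Hspa8* also did not pass with TMM factors (0.43, adjusted p = 0.234), with DESeq2 (0.48, 0.212) or near a TSS (0.099, 0.837), and *Hsp90ab1* not near a TSS (0.12, 0.802). Genes of oxidative phosphorylation gave 19 and 3 of 56 (median 0.80; TMM 11 and 4), but 1 and 1 of 47 near a TSS, where their median was −0.11, and 9 and 1 without the male H3K27ac library, 12 and 3 without the female-labelled Rpb2 library and 10 and 3 without the male one. *Atp5h*, an ATP synthase subunit gene, had 242 and 181 CPM of Rpb2 and 48.5 and 53.8 CPM of H3K27ac, with a log2 ratio of 2.04 ± 0.27 (SE, adjusted p = 0.000225), and *Cox4i1*, of cytochrome oxidase, 90.9 and 76.5 CPM of Rpb2 and 318 and 523 CPM of H3K27ac, with a log2 ratio of −2.33 ± 0.29 (SE, adjusted p = 0.000141). By gene body neither passed, with *Atp5h* at 0.034 (adjusted p = 0.961) and *Cox4i1* turned to 0.14 (0.835). Genes of the polymerase II machinery gave 9 and 2 of 28 (median 0.74; near a TSS 3 and 3, median −0.29; 5 and 2 without the male H3K27ac library, 5 and 3 without the male Rpb2 library). Among these, *Polr2a*, the catalytic subunit, had 454 and 516 CPM of Rpb2 and 68.1 and 72.9 CPM of H3K27ac, with a log2 ratio of 2.78 ± 0.23 (SE, adjusted p = 1.5e-05), and *Gtf2b*, encoding TFIIB, 318 and 210.3 CPM of Rpb2 and 26.2 and 18.7 CPM of H3K27ac, with a log2 ratio of 3.57 ± 0.32 (SE, adjusted p = 2.44e-05). *Hexim1*, whose product holds the pause-release kinase inactive, lay on the Rpb2 side and *Ell*, an elongation factor gene, on the other, at 1.58 ± 0.24 (SE, adjusted p = 0.00047) and −1.41 ± 0.26 (SE, adjusted p = 0.00177). Near a TSS *Hexim1* did not pass (0.47, adjusted p = 0.228). *Cdk9*, the gene of that kinase, lay on the H3K27ac side, with 46.6 and 35.4 CPM of Rpb2 and 136 and 174 CPM of H3K27ac, with a log2 ratio of −1.92 ± 0.31 (SE, adjusted p = 0.00073). *Polr2b*, which encodes Rpb2 itself, had 31.3 and 14.1 CPM of Rpb2 and 40.2 and 27.9 CPM of H3K27ac and did not pass, at −0.59 ± 0.61 (SE, adjusted p = 0.485). Proteasome genes gave 5 and 1 of 27, below the 22.2% and 14.2% of all genes (median 0.80; TMM 3 and 1, DESeq2 2 and 1, near a TSS 1 and 2; 3 and 1 without the male H3K27ac library). *Psma1*, a core subunit gene, was the H3K27ac-higher one, with 181 and 237 CPM of Rpb2 and 604 and 973 CPM of H3K27ac, with a log2 ratio of −1.91 ± 0.28 (SE, adjusted p = 0.000371), and *Psmc3*, *Psma6* and *Psma3* lay between 0.18 and 0.38 without passing.

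**Figure D5:**
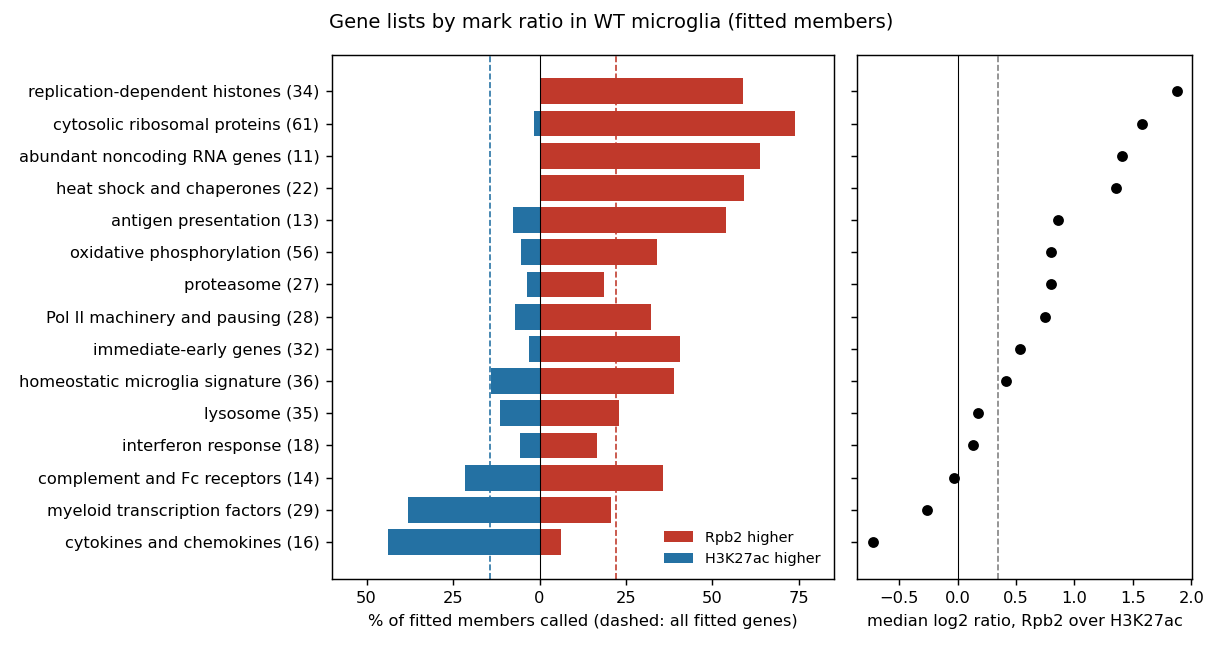
Left, share of the tested members of 15 gene lists with higher Rpb2 (red, to the right) or higher H3K27ac (blue, to the left) in WT microglia, with the number of members tested in brackets and dashed lines at the shares over all genes (22.2% and 14.2%). Right, median log2 ratio of each list, with a dashed line at the median of all genes, 0.34. Histone and ribosomal protein genes lie at the Rpb2 end and cytokine genes at the H3K27ac end.

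Immediate-early genes, which answer to stimulation within minutes, gave 13 with higher Rpb2 and 1 with higher H3K27ac of 32 (median 0.54). Over all genes the shares were 22.2% and 14.2%. TMM gave 12 and 3, beside 1346 and 1956 of 9611 over all genes. Peaks near a TSS gave 3 and 2 of 18, beside 476 and 896 of 6677. *Ier5* had 418 and 379 CPM of Rpb2 and 89.0 and 125 CPM of H3K27ac, with a log2 ratio of 1.89 ± 0.25 (SE, adjusted p = 0.000201), *Jund* 496 and 652 CPM of Rpb2 and 157 and 161 CPM of H3K27ac, with a log2 ratio of 1.86 ± 0.24 (SE, adjusted p = 0.00016), and *Btg2*, an antiproliferative gene, 1007 and 1085 CPM of Rpb2 and 363 and 459 CPM of H3K27ac, with a log2 ratio of 1.35 ± 0.23 (SE, adjusted p = 0.000957). *Egr2* was the exception, with 8.40 and 10.3 CPM of Rpb2 and 66.7 and 60.4 CPM of H3K27ac, with a log2 ratio of −2.75 ± 0.52 (SE, adjusted p = 0.00179). *Fos* and *Egr1* had overlapping ranges and ratios of 0.03 and 0.05. *Jun*, *Junb* and *Zfp36l2*, the members with most reads beside *Btg2*, did not pass (0.51, 0.58 and −0.23).

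The next lists stand beside 22.2% of all genes with higher Rpb2 and 14.2% with higher H3K27ac. Under TMM those splits were 1346 and 1956 of 9611. The lysosomal list gave 8 members with higher Rpb2 and 4 with higher H3K27ac of 35 (median 0.18), close to the 22.2% and 14.2% of all genes. TMM turned the count to 5 and 8, and without the male Rpb2 library it was 5 and 4. *Ctsd* and *Psap*, abundant lysosomal genes, had ratios of −0.50 ± 0.23 (SE, adjusted p = 0.110) and −0.44 ± 0.23 (SE, adjusted p = 0.150), and the vacuolar ATPase genes split, with *Atp6v0b* at 1.91 and *Atp6v0c* at −2.18. Complement and Fc receptor genes gave 5 and 3 of 14 (median −0.03; TMM 5 and 5; 5 and 1 without the male Rpb2 library, 6 and 1 without the male H3K27ac library). *Fcgr4*, an activating IgG receptor gene, had 72.5 and 37.3 CPM of Rpb2 and 235 and 395 CPM of H3K27ac, with a log2 ratio of −2.53 ± 0.36 (SE, adjusted p = 0.000304), while *Fcrls*, a microglial Fc receptor-like gene, did not pass (0.53) and *Fcgr3* had 566 and 514 CPM of Rpb2 and 156 and 282 CPM of H3K27ac, with a log2 ratio of 1.30 ± 0.28 (SE, adjusted p = 0.00427). Antigen presentation genes gave 7 and 1 of 13 (median 0.86; TMM 4 and 2), with *B2m*, the light chain of class I molecules, at 0.97 ± 0.27 (SE, adjusted p = 0.0152) and *H2-K1* at 1.92 ± 0.27 (SE, adjusted p = 0.00029). *B2m* did not pass without the female-labelled Rpb2 library (adjusted p = 0.127), with TMM factors (0.175) or with DESeq2 (0.160). *H2-DMa*, at 3.10 ± 0.27 (SE, adjusted p = 2.15e-05), had 84.1% of its Rpb2 reads in a peak named *Brd2*, and *Cd86*, a costimulatory gene, did not pass (0.35). *H2-K1* has close copies, so its value is uncertain. Interferon response genes gave 3 and 1 of 18 (median 0.13; TMM 1 and 2; 1 and 1 without the female-labelled Rpb2 library), with *Zbp1* and *Mx2* on the Rpb2 side (1.16 and 1.20) and *Bst2* not passing. Without the male H3K27ac library neither *Zbp1* (adjusted p = 0.0550) nor *Mx2* (0.0821) passed, and *Mx2* also not without the female-labelled Rpb2 library (0.183). With TMM factors neither passed (adjusted p = 0.0755 and 0.0730). Abundant noncoding RNA genes gave 7 and 0 of 11 (median 1.41; TMM 6 and 0), with *Gas5* at 2.43 ± 0.26 (SE, adjusted p = 6.02e-05), *Snhg12* at 1.14 ± 0.26 (SE, adjusted p = 0.00516) and *Malat1* at 1.41 ± 0.25 (SE, adjusted p = 0.0014). With TMM factors *Snhg12* did not pass (adjusted p = 0.0605). *Malat1* turned to −0.093 near the TSS and to −2.93 with peaks of both lists. Over the 15 lists with at least 5 members tested, 13 had more Rpb2-higher than H3K27ac-higher members, 9 under TMM and 6 near a TSS, beside splits over all genes of 2129 and 1363, 1346 and 1956 under TMM, and 476 and 896 near a TSS. Nothing about the lists is read from these counts.

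Few markers of other brain and blood cells had an Rpb2 peak. Of 11 neuron markers, 0 had an Rpb2 peak and 5 had an H3K27ac peak, with a summed H3K27ac level of 75.9 and 20.1 CPM. Rpb2 peaks were found at 1 of 8 astrocyte markers, 3 of 11 oligodendrocyte markers, 3 of 8 endothelial markers, 3 of 15 leukocyte markers and 1 of 9 border macrophage markers. The summed Rpb2 level of these lists ran from 31.3 CPM (border macrophages) to 387 CPM (oligodendrocytes), against 30390 and 29190 CPM for the homeostatic microglia signature. *Slc1a3*, a glutamate transporter gene, carried the whole astrocyte value, and *Cnp* and *Mbp*, both of myelin, nearly all of the oligodendrocyte value. *Slc1a3* and *Cnp* stood in the top 10% of all genes in both marks. *Pecam1*, *Kdr* and *Flt1* were the endothelial genes with Rpb2 peaks, *Ccr7*, *Ngp* and *Plac8* the leukocyte genes and *Cbr2* the border macrophage gene. Their H3K27ac was as high or higher at several: *Slc1a3* lay at −1.08 ± 0.24 (SE, adjusted p = 0.00476), *Mbp* at −1.11 ± 0.26 (SE, adjusted p = 0.00648), *Pecam1* at −2.04 ± 0.29 (SE, adjusted p = 0.000308) and *Cbr2* at −1.31 ± 0.37 (SE, adjusted p = 0.0171). *Slc1a3* did not pass without the female-labelled (adjusted p = 0.0539) or the male Rpb2 library (0.0616), *Mbp* not without the male Rpb2 library (0.0900), and *Cbr2* not without the female-labelled Rpb2 (0.0812) or the male H3K27ac library (0.131). Near a TSS *Slc1a3* turned to 0.19 (adjusted p = 0.804) and *Mbp* to 0.72 (0.369), and *Pecam1* did not pass (−1.13, 0.112). By gene body *Cbr2* turned to 0.20 (0.773). The cells had been sorted as CD11b+ CD45lo, a gate that leaves out cells without CD11b such as neurons, astrocytes, oligodendrocytes and endothelial cells. The part of other cells in the ratios was not tested, and in pooled cells a share of other cells and low occupancy in microglia cannot be told apart.

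Genes with Rpb2 peaks only had a median of 35.7 CPM of Rpb2, against 58.3 CPM in the genes with both. Of the 5 strongest, 4 had nearly all of their Rpb2 reads in H3K27ac domains named for a neighbor. *Rnf135* had 706 and 651 CPM, and 98.9% of these reads lay in the 44627-bp H3K27ac domain named *Adap2*. *Mir339* (422 and 413 CPM), *Hist1h1e* (402 and 381) and *Serinc3* (379 and 379) had 100% of their Rpb2 reads in domains named *Gpr146*, *Hist1h2be* and *0610039K10Rik*. *Arhgef17* (365 and 367 CPM) had 29.6% in the domain of *P2ry6* and 70.4% outside H3K27ac. Among the genes with H3K27ac only, *Pisd-ps3* had 1168 and 259 CPM, the strongest peak of which lies on an unplaced contig and carried 2061 and 1018 reads. *Gm38414* (387 and 485 CPM) had 10 H3K27ac peaks, *4931402G19Rik* (213 and 318) had 1, *Sdk1* (268 and 399) had 16 and *Rbfox1* (298 and 225), a neuronal splicing factor gene of great length, had 29. By gene body *Sdk1* received Rpb2 peaks as well, with a log2 ratio of −3.23 ± 0.28 (SE).

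The balance of the marks was compared with that in KO microglia by the interaction of mark and genotype in 8 libraries. No gene passed in edgeR: adjusted p-values began at 0.131, 789 of the 9611 genes stood under 0.05 before adjustment, and DESeq2 called 70. In counts simulated with the same spread for every gene, the edgeR test recovered 38 of 100 genes changed 4-fold and 0 of 100 changed 2-fold. A gene that did not pass is thus not shown to have equal ratios in both genotypes. As for the WT test, the simulated recovery is not that of a given gene. Without the male WT H3K27ac library 116 genes passed and without the female one 4, while leaving out any other single library gave 0. *Cx3cr1* itself had a KO ratio of 0.98 and a WT ratio of 0.88 (interaction adjusted p = 0.950). In KO its levels were 2118 and 1879 CPM of Rpb2 and 990.0 and 1033 CPM of H3K27ac, each below both WT values of that mark. Of the 2129 genes with higher Rpb2 in WT, 2117 had a ratio of the same sign in KO, and of the 1363 with higher H3K27ac, 1358. Over all 9611 genes, 8285 (86.2%) had the same sign, and the called genes were those with large WT ratios.

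The 5 genes with the lowest interaction p were *Ankrd10*, *Plekha3*, *2010010A06Rik*, *Leap2* and *Mtmr12*. At *Ankrd10*, Rpb2 was 0 reads in both WT libraries and 12.7 and 20.4 CPM in KO, beside H3K27ac of 72.3 and 63.3 CPM in WT and 70.5 and 59.8 CPM in KO (adjusted p = 0.131). At *Mtmr12*, a myotubularin-related gene, Rpb2 was 72.5 and 76.5 CPM in WT and 14.4 and 25.2 CPM in KO, while H3K27ac was 87.2 and 73.8 against 98.3 and 118 (adjusted p = 0.160). At *Leap2* and *Plekha3* the KO H3K27ac libraries held 0 reads.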

How the data were processed

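Both ChIP-seq assays used sorted microglia (CD11b+ CD45lo) fixed before sorting. Reads of 51 nt from 1 end were mapped by the authors with Bowtie 2 (mm10); uniquely mapping reads entered HOMER, and IDR selected the peaks. They pooled the peak lists of both genotypes and deposited, for each peak, its read count in every library and the gene with the nearest start. Versions were not given in the sources used here. From the deposited counts, reads were summed per Gene Name and scaled to the reads in peaks of each library, which makes every ratio a ratio of shares. Only genes with peaks of both marks and a mean of at least 4 reads in 1 of them were tested. The main fit was edgeR 4.0.16 (quasi-likelihood test, library sizes without TMM factors, Benjamini-Hochberg adjustment, threshold 0.05) in R 4.3.3, with the 4 WT libraries for the ratio and 8 libraries for the interaction. DESeq2 1.42.0, TMM factors, other filters, other sets of peaks and each library left out in turn were alternatives. Scripts ran in Python 3.11.15 and were tested on simulated data. Libraries of 1 mark are separate pools; whether both marks share pools is not given, and p-values measure the spread between libraries. Reads carry no molecular identifiers, so counting limits cover counting error only. Authors' peak statistics and the input libraries were not used here.

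Members and lists were chosen with earlier results of these data known. Named genes were the 10 with the lowest p in each direction whose libraries did not overlap, the 10 with the best worst rank in both marks, the 5 strongest without a peak of the other mark, the 4 members of each list with most reads, *Cx3cr1*, and the 5 lowest interaction p. Some genes that this rule selects are not reported here. Further list members, and *Tmem119*, were named after their values were seen. Promoters came from RefSeq, and gene bodies from the GENCODE vM21 annotation, both of GRCm38.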

Additional observations from a re-analysis of the deposited data

How the results depend on the processing

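Alternative scalings moved the center of the ratio. Genes with higher Rpb2 numbered 1346 with TMM factors and 1340 with DESeq2. With peaks within 1000 bp of a TSS, 1372 genes differed, 476 with higher Rpb2 and 896 with higher H3K27ac. Peaks of both the WT and KO lists gave 776 genes with higher H3K27ac, and peaks given by gene body 3377 with higher Rpb2; these last alternatives were chosen after seeing the data, and the body count adds a peak whole to every gene that it overlaps. Leaving out 1 WT library gave 2549 to 3594 called genes. Genes high in both marks numbered 414 at the top 5%, 1951 at the top 20%, 310 near a TSS and 228 per kb of peak. Those high in Rpb2 only numbered 342 at the top 5%, 1074 at the top 20% and 1081 per kb, and those high in H3K27ac only 371 at the top 5% and 1136 at the top 20%. The correlation of the marks was 0.557 near a TSS, 0.519 with the WT list and 0.326 per kb. The share of Rpb2 peaks in H3K27ac was 80.9% with the WT list, 74.9% at an overlap of 50% of the Rpb2 peak and 90.5% with peaks of both lists, and the share of H3K27ac peaks with Rpb2 was 19.2%, 22.9% and 30.8%. Of 15 lists, 6 had more Rpb2-higher members near a TSS. For the interaction DESeq2 called 70 genes, and leaving out 1 library gave 0 to 116. Except where the construction of an alternative changes which peaks or genes enter, the cause was not tested.

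For the named genes, 1339 alternative fits of 97 results gave 1181 on the same side of the threshold, 40 of them with the other sign but passing in neither fit, 76 that newly passed, 62 that no longer passed and 20 that changed sign with a call in at least 1 of the fits. Near a TSS, *Atg16l1* stood at −2.20, *Fcgr3* at −0.25, *Malat1* at −0.093, *Mbp* at 0.72 and *Slc1a3* at 0.19. With peaks of both lists, *Cx3cr1* stood at −0.31, *Inpp5d* at −0.78, *Malat1* at −2.93 and *Zbp1* at −0.62. By gene body, *Atg16l1* stood at −1.37, *C1qb* at −0.57, *Cbr2* at 0.20, *Cox4i1* at 0.14, *Dleu2* at 1.01, *Ly86* at 0.90, *Mef2a* at 1.45, *Ndufs8* at −2.41, *Pnpla7* at 0.62, *Sall1* at 0.56 and *Tgfb1* at −1.23.

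Labels give each library a sex, F or M, in every group and no number. The sex label served as the replicate number, so a replicate block is a block of the sex label. Libraries of the same sex label did not deviate together (Pearson −0.02 and Spearman −0.01 over 9611 genes for 2 pairs). Each mark gives a single contrast here, and the WT female-labelled Rpb2 library goes against its label, while the WT female H3K27ac library goes with it. The correlation therefore cannot decide whether libraries of the same label share pools. With the sex label as replicate block, 3183 genes differed, 1926 with higher Rpb2 and 1257 with higher H3K27ac, and 0 passed for the interaction.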
